A study of Mus musculus with 15 samples.

Results

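The genes described here are the core of endocannabinoid signalling in the mouse brain, 7 of the 32285 genes counted in each library. They were taken by name, as a receptor and the enzymes that make or break its ligands, and all 7 had counts in each of the 15 libraries. Cnr1 encodes the cannabinoid receptor CB1. Dagla and Daglb encode the diacylglycerol lipases that make 2-arachidonoylglycerol (2-AG), and Mgll and Abhd6 encode hydrolases that break it down. Napepld encodes a phospholipase that releases anandamide from its membrane precursor, and Faah encodes the amidase that breaks anandamide down.

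Endocannabinoids are lipids that neurons release from their membranes on demand. They act mostly backwards across the synapse, where CB1 on the axon terminal lowers the release of transmitter. In the hippocampus CB1 is known for its dense presence on terminals of Cck-positive basket cells, with lower amounts on glutamatergic terminals.

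Single-nuclei RNA sequencing (snRNA-seq) was available for 15 wild-type female mice, with 1 library per mouse. The groups were NP (6 virgin nulliparous mice), ControlPP (4 dams with reproductive experience that reared their litter undisturbed) and StressPP (5 dams that in the late suckling period had limited nesting material and daily separation from the pups). All were C57BL6/J mice, NP mice were matched to the dams by age, and the age at tissue collection is not among the labels. Nuclei came from 4 micropunches per mouse, aimed at the dorsal hippocampal formation (dHF) but wide enough to take in tissue beside it. The labels give 3 batches. Batch 1 was made up of 2 NP mice and 1 StressPP mouse, so it lacked ControlPP, and every group had 2 mice in batch 2 and 2 in batch 3.

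After the filters and the removal of likely doublets, 5468 to 11438 nuclei per mouse were kept, with 38017096 to 86562600 unique molecular identifiers (UMIs) per library and a median of 3898 to 8487.5 UMIs per nucleus. A total of 2211 barcode sequences, or 1.68% of the distinct ones, occurred in 2 or more libraries, and 34 in 3 or more. The nuclei formed 37 clusters, which marker lists placed in 29 named classes, and 4 clusters stayed unnamed. Besides hippocampal neurons and glia, the classes included thalamic, habenular and striatal projection neurons, so the punches were not hippocampus alone. The endocannabinoid genes and 24 further genes of the pathway had no part in the clustering. NP mouse 31 and StressPP mouse 70, both from batch 1, stood apart for several members, and their values are given where they bear on a result. These mice also had the most nuclei of an unnamed cluster of low depth (number 6, median 1336 UMIs), with 1280 and 638 against 106 to 388 in the other 13 mice.

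Levels are given in CPM, the UMIs of a gene per 1000000 UMIs of all genes in the nuclei of a class from the same mouse. They are given as the mean over mice ± SD, for mice in which the class had 10 or more nuclei. The counts come from the 3′ ends of transcripts, so levels are compared between classes for the same gene and not between genes. Neighbouring classes in the order of levels were compared within mice with a two-sided exact permutation test on log2(CPM + 1), adjusted over 196 such pairs.

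**Figure D1:**
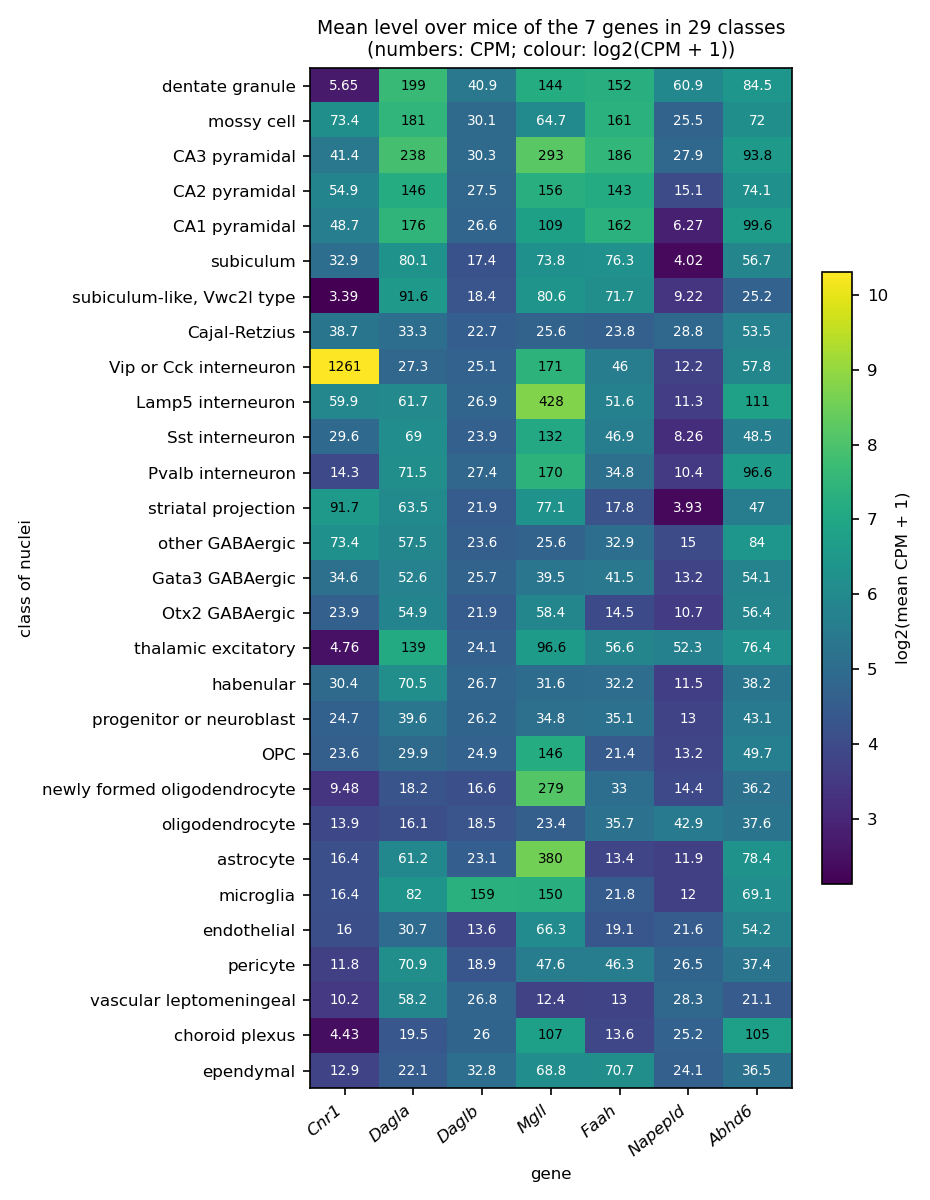
Heat map of the mean level over mice in CPM for the 7 genes (columns) in the named cell classes (rows), coloured on a log scale, with the value written in each cell. Cnr1 stood at 1261 CPM in Vip or Cck interneurons and at no more than 91.7 CPM in any other named class, Daglb at 159 CPM in microglia, and Abhd6 was spread over most classes.

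Cnr1 lies on chromosome 4 (4:33924593-33948831 on the plus strand of GRCm38). Its level was highest in a class of interneurons. In Vip or Cck interneurons its level was 1261 CPM ± 227 (SD, n = 15), with the lowest mouse at 912 CPM and the highest at 1724 CPM, and this class was the highest in 15 of 15 mice. Striatal projection neurons were next at 91.7 CPM ± 38.7 (n = 8), 13.7-fold lower. All 8 mice that held both classes showed this direction (exact permutation test within mice, p = 0.00781, which is the lowest that 8 mice allow, and 0.0901 after adjustment). Vip or Cck interneurons made up 0.570% of the nuclei and 0.888% of the UMIs, and gave 28.6% ± 7.54 (SD, n = 15) of the Cnr1 UMIs of a punch. Interneuron nuclei that could not be assigned to a class gave 12.5% ± 5.34 with 0.444% of the nuclei, CA1 neurons 10.6% ± 4.57 and CA3 neurons 9.46% ± 2.54.

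The share of nuclei with a UMI was high in the same class, and is set here against a class of low level. A Cnr1 UMI was found in 93.8% of the Vip or Cck interneurons (95% Wilson interval 91.7 to 95.3), which had a median of 10320 UMIs. In choroid plexus, an epithelium with no synapses, it was 3.15% (2.14 to 4.61) at a median of 5886.5 UMIs. When each nucleus was thinned to 1000 UMIs, these shares became 58.3% (54.5 to 61.9) and 0.506% (0.197 to 1.29). These intervals cover counting error only.

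Among hippocampal neurons, Cnr1 differed by field. Mossy cells had 73.4 CPM ± 12.9 (n = 13), CA2 neurons 54.9 CPM ± 8.79, CA1 neurons 48.7 CPM ± 7.64 and CA3 neurons 41.4 CPM ± 3.95 (n = 15 each). CA1 exceeded CA3 in 14 of 15 mice (log2 difference 0.22, exact permutation test, adjusted p = 0.016). Dentate granule neurons, the most numerous neurons of the punches, had 5.65 CPM ± 1.32. CA1 and mossy cells were above dentate granule neurons in 15 of 15 and 13 of 13 mice. After thinning, 0.535% of dentate granule nuclei had a Cnr1 UMI, a share within the interval of choroid plexus. The part of background in the granule neuron level was not tested, and no fold is given against it. Thalamic excitatory neurons, at 4.76 CPM ± 1.36, had a thinned share of 0.559%, also within that interval.

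Outside neurons, Cnr1 was low. Oligodendrocyte precursor cells (OPC) had 23.6 CPM ± 3.74 and astrocytes 16.4 CPM ± 3.18. OPC were the higher in 15 of 15 mice (exact permutation test, adjusted p = 0.00239). These were the only neighbours, with CA1 and CA3, that passed the adjusted threshold for Cnr1 among 28 pairs.

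**Figure D2:**
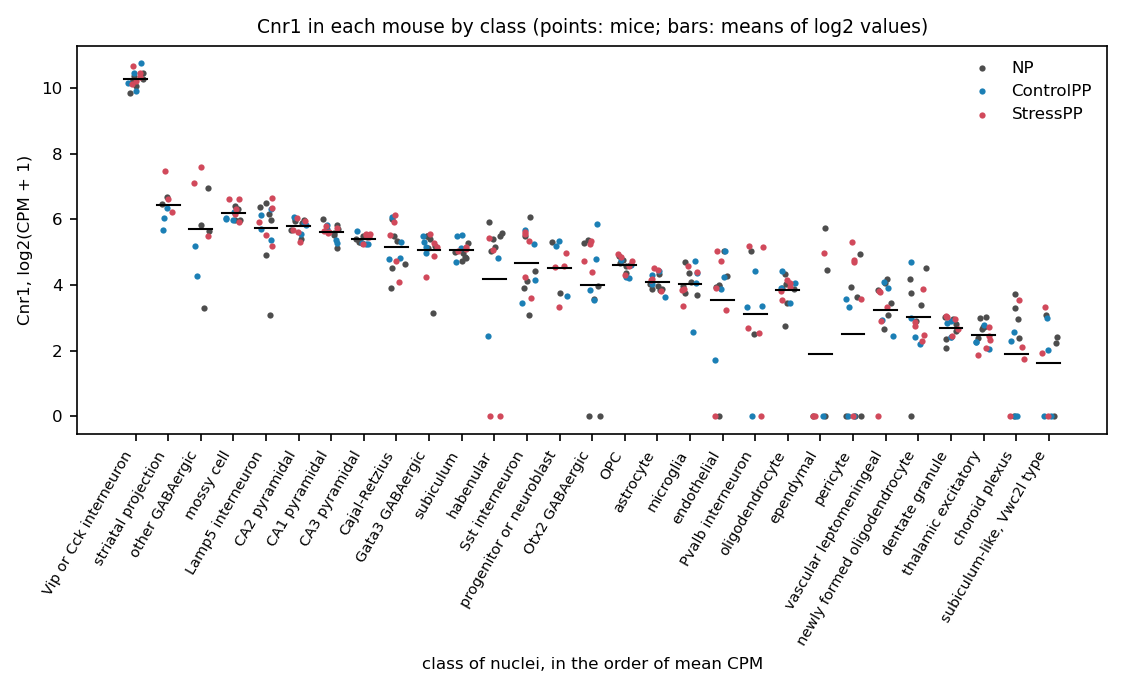
Level of Cnr1 in the named cell classes, drawn on the log scale used to compare neighbouring classes. Each mouse is a point coloured by group, and each bar is the mean of the log values. The 15 mice sat between 912 and 1724 CPM in Vip or Cck interneurons, and the 3 groups were interleaved.

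The other interneuron classes were far below. Lamp5 interneurons had 59.9 CPM ± 25.2 (n = 15), Sst interneurons 29.6 CPM ± 18.4 (n = 15) and Pvalb interneurons 14.3 CPM ± 14.0 (n = 11). Vip or Cck interneurons were above each in all mice that held both classes. These pairs were chosen after the levels were seen and carry no test. The Pvalb value rests on 52 UMIs and was 0 in its lowest mouse, so no fold is given against it. A further 549 interneuron nuclei could not be assigned to a class and had 537 CPM ± 132 (n = 15). They lie outside the order of classes.

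Clustering the 2833 interneuron nuclei again gave 23 sub-clusters, over which Cnr1 ran from 2.56 to 2227 CPM when the nuclei of all mice were pooled. The highest was sub-cluster 9 (95% Poisson interval 2151 to 2304, counting error only), led by Frem1, Megf10 and Slc17a8, the last of which encodes the vesicular glutamate transporter VGLUT3. Each of its 93 nuclei held Cnr1 UMIs. Sub-cluster 16, led by Krt73, had 1925 CPM and sub-cluster 2, led by Cpne5, had 1314 CPM. The sub-cluster led by Vip itself, number 14, had 634 CPM. The lowest was sub-cluster 11, in the Pvalb class and led by Gfra1 and Aox3.

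Within a class the sub-clusters were not alike. Among Lamp5 sub-clusters, number 18 (led by Dock5) had 304 CPM of Cnr1, whereas number 4 (led by Vcan) had 5.93 CPM. Among Sst sub-clusters, number 6 (led by Sema3a) had 105 CPM and number 13 (led by Atp2b4) had 3.43 CPM. Of the unassigned sub-clusters, number 0 (led by Col5a2) had 1534 CPM and number 21 (led by Scube1) had 948 CPM, both above the sub-cluster led by Vip. The other 4 were lower, with number 19 at 367, number 17 at 238, number 8 at 38.1 and number 5 at 8.43 CPM. Without thinning, a Cnr1 UMI was found in 98.5% of the nuclei of number 0, 100% of number 21 and 10.8% of number 5. In the Lamp5 sub-clusters 18 and 4 the shares were 82.5% and 7.00%.

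**Figure D3:**
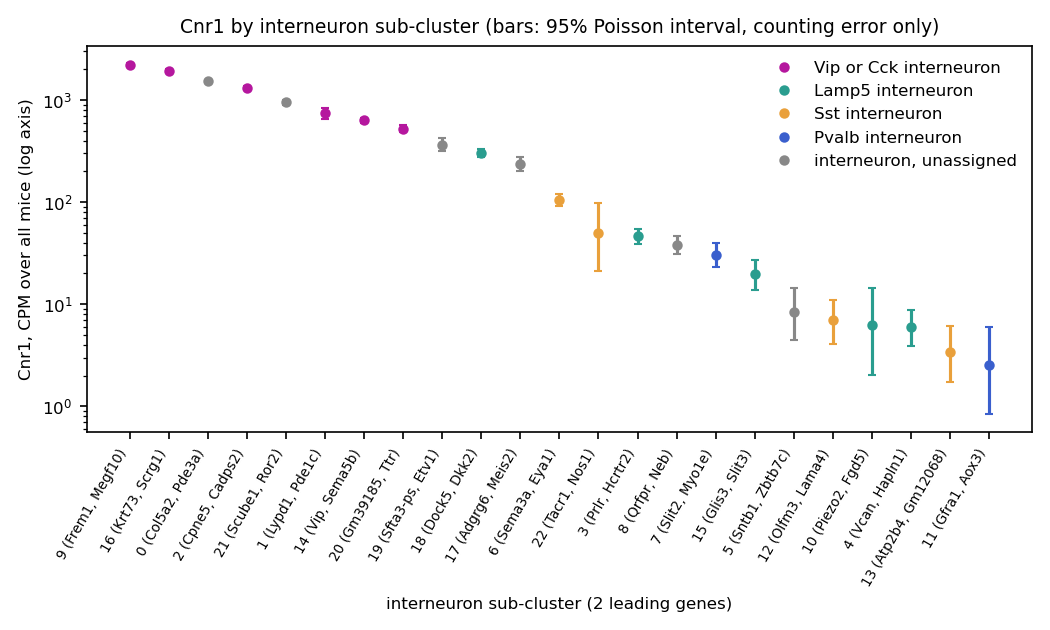
Cnr1 level in CPM (log axis) in each of the 23 interneuron sub-clusters, from the pooled counts of all mice, with 95% Poisson intervals and a colour for the class each sub-cluster was assigned to. The values run from 2.56 to 2227 CPM, and the sub-clusters of Vip or Cck interneurons sit at 523 CPM or above.

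RefSeq windows of 250 bases before to 50 bases after a start site (GRCm38.p6) were matched for 6 of the 7 genes, all but Dagla. Cnr1 has 3 windows, and the one at the start of the annotated gene is shown because this gene had the highest ratio of its top class to the next. It is chr4:33924394-33924693 on the plus strand, with 69% G or C against a median of 52.7% over 32851 windows. The capitals mark the palindromic E-box CACGTG, which 7.15% of all windows hold and which reads the same on both strands.
Cnr1: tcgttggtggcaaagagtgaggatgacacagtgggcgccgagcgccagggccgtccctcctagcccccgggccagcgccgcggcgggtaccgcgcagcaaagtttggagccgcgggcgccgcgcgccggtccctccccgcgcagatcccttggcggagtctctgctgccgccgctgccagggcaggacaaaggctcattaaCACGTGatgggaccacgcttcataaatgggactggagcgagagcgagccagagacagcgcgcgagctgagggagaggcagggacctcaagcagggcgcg

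The 2 lipases that make 2-AG had their highest levels in different classes. Dagla (19:10245265-10304877, minus strand) was led by excitatory neurons. It was highest in CA3 neurons at 238 CPM ± 63.6 (n = 15), and without NP mouse 31, which had 402 CPM, the mean was 227 CPM. Dentate granule neurons followed at 199 CPM ± 35.4, below CA3 in 14 of 15 mice (log2 difference 0.24, exact permutation test, adjusted p = 0.00513). Mossy cells (181 CPM), CA1 neurons (176 CPM), CA2 neurons (146 CPM) and thalamic neurons (139 CPM) came next. Of these neighbours only CA1 and CA2 passed the adjusted threshold (adjusted p = 0.0464 by the exact permutation test).

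The interneurons rich in Cnr1 had little Dagla. Vip or Cck interneurons stood at 27.3 CPM ± 10.6, 7.27-fold below dentate granule neurons in 15 of 15 mice. Oligodendrocytes were the lowest class at 16.1 CPM ± 4.09. Dentate granule neurons held 24.8% of the nuclei and 31% of all UMIs, and gave 44.6% of the Dagla UMIs of a punch.

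Daglb (5:143464584-143505942, plus strand) was highest in microglia, the resident immune cells of the brain. It had 159 CPM ± 21.3 (n = 15) there, from 115 to 193 CPM, and no class was higher in any of the 15 mice. Dentate granule neurons followed at 40.9 CPM ± 4.25, 3.89-fold lower (exact permutation test, adjusted p = 0.00239). No other pair of neighbours passed the threshold for Daglb. The remaining named classes lay between 13.6 CPM in endothelial cells and 32.8 CPM in ependymal cells.

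A Daglb UMI was found in 27.3% of microglia at a median of 2062 UMIs, against 3.62% of endothelial cells at a median of 2197.5 UMIs. After thinning the shares were 14.5% (95% Wilson interval 13.6 to 15.5) and 1.33% (0.810 to 2.19). Microglia gave 6.02% of the Daglb UMIs with 1.20% of all UMIs. Within dentate granule neurons, cluster 0 had 55.7 CPM ± 6.56 of Daglb, above clusters 1 (34.7 CPM) and 2 (31.7 CPM) in 15 of 15 mice.

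The end of Daglb overlaps that of Rac1 on the other strand (5:143503634-143528036). The sources used here do not give the strand setting of the counting, so Rac1 reads among the Daglb counts were not tested for. The Daglb window is chr5:143464243-143464542 on the plus strand, with 51% G or C, and is shown beside that of Cnr1 for the contrast in composition. The capitals mark GAGGAA, a purine run searched on both strands (TTCCTC) and held by 28.3% of all windows. Neither this window nor the Cnr1 window printed above holds a GC box (GGGCGG or CCGCCC), which 35.7% of windows hold. Of the other 2 Cnr1 windows, one (chr4:33924014-33924313) holds 5 and the other (chr4:33926130-33926429) holds none.
Daglb: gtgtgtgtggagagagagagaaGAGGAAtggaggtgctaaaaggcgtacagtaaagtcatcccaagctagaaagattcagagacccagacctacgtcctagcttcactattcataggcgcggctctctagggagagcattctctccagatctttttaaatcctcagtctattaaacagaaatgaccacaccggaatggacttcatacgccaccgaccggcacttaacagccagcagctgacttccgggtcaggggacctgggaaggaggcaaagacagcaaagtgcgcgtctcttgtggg

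Mgll encodes monoacylglycerol lipase, the main 2-AG hydrolase of the brain. The gene lies at 6:88724412-88828360 on the plus strand, and 5 short transcripts of uncertain or antisense type are annotated within or across it, so reads shared with those on the same strand are uncertain. Mgll was highest in Lamp5 interneurons, astrocytes and CA3 neurons, and was not high in all interneurons or all glia. Lamp5 interneurons had 428 CPM ± 106 (n = 15) and astrocytes 380 CPM ± 43. Lamp5 interneurons were the higher in 9 of 15 mice, and the pair did not pass the threshold (exact permutation test, adjusted p = 0.341). Without NP mouse 31, which had 783 CPM, the Lamp5 mean was 402 CPM. CA3 neurons had 293 CPM ± 68.0, below astrocytes in 13 of 15 mice (exact permutation test, adjusted p = 0.0087).

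Hippocampal excitatory neurons differed in Mgll by field. CA3 exceeded CA1, at 109 CPM ± 19.2, by 2.68-fold in 15 of 15 mice, and mossy cells, at 64.7 CPM ± 25.5, by 4.39-fold in 13 of 13 mice. CA2 (156 CPM) and dentate granule neurons (144 CPM) lay between. No test was made on these pairs, which were picked after the levels were seen. Dentate granule neurons gave 32.2% of the Mgll UMIs of a punch, the largest share of a class, and CA3 neurons gave 18.1%.

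Along the oligodendrocyte lineage, the middle stage stood out. OPC had 146 CPM ± 18.6 of Mgll, newly formed oligodendrocytes 279 CPM ± 78.3 and oligodendrocytes 23.4 CPM ± 4.62. The newly formed cells were 1.91-fold above OPC and 12.0-fold above oligodendrocytes, each in 15 of 15 mice. A Mgll UMI was found in 70.7% of newly formed and 5.60% of mature oligodendrocytes at medians of 6252 and 2496 UMIs. After thinning the shares were 20.2% (95% Wilson interval 17.2 to 23.5) and 2.24% (2.08 to 2.41).

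Astrocytes were not uniform either. Cluster 11 had 505 CPM ± 73.9 of Mgll and cluster 18 had 193 CPM ± 32.9, a 2.61-fold gap in the same direction in 15 of 15 mice. Among interneuron sub-clusters, those rich in Cnr1 differed widely in Mgll. Sub-cluster 9 had 379 CPM of Mgll from the pooled nuclei, whereas sub-cluster 20, led by Gm39185 and with 523 CPM of Cnr1, had 14.4 CPM. The highest was sub-cluster 3 of the Lamp5 class, led by Prlr, at 524 CPM. The lowest class was the vascular leptomeningeal class at 12.4 CPM ± 7.43, below oligodendrocytes in 14 of 15 mice (exact permutation test, adjusted p = 0.012).

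Abhd6 (14:8002902-8056763, plus strand), whose product is a 2-AG hydrolase of neurons, was the most evenly spread of the genes. Its highest class, Lamp5 interneurons, had 111 CPM ± 19.4 and was only 1.97-fold above the median class. It was the top class in 5 of 15 mice. Choroid plexus (105 CPM), CA1 (99.6 CPM), Pvalb interneurons (96.6 CPM) and CA3 (93.8 CPM) followed, and none of these neighbours passed the threshold. CA3 exceeded dentate granule neurons, at 84.5 CPM ± 7.91, in 15 of 15 mice by a log2 difference of 0.15 (exact permutation test, adjusted p = 0.00239).

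Interneuron classes differed in Abhd6. Pvalb interneurons were 2.00-fold above Sst interneurons in 11 of 11 mice, and Lamp5 interneurons were 1.92-fold above Vip or Cck interneurons in 15 of 15 mice. The lowest class was vascular leptomeningeal at 21.1 CPM ± 7.01.

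Of the anandamide enzymes, Napepld (5:21662901-21701396, minus strand) differed between the hippocampal fields. Dentate granule neurons had 60.9 CPM ± 9.06 (n = 15), CA3 neurons 27.9 CPM ± 5.10 and CA1 neurons 6.27 CPM ± 2.11. Dentate granule and CA3 neurons were both above CA1 in 15 of 15 mice. CA1 sat near the bottom of the order, above the subiculum (4.02 CPM) and striatal projection neurons (3.93 CPM). No fold is given against CA1, since the part of background in so low a level was not tested.

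The next highest Napepld classes were thalamic neurons at 52.3 CPM ± 9.61 and oligodendrocytes at 42.9 CPM ± 5.67. Each step from dentate granule to thalamic neurons, to oligodendrocytes and to Cajal-Retzius cells (28.8 CPM ± 13.1) passed the threshold (exact permutation tests, adjusted p = 0.0137, 0.00399 and 0.0087). Oligodendrocytes exceeded OPC 3.24-fold in 15 of 15 mice. Of the thalamic clusters, cluster 3 had 53.3 CPM ± 9.80 and the small cluster 4 had 13.5 CPM ± 6.81, lower in 8 of 8 mice. Dentate granule neurons gave 52.3% of the Napepld UMIs of a punch.

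The gap between the fields was also there at equal depth. After thinning to 1000 UMIs, 5.82% of dentate granule nuclei (95% Wilson interval 5.57 to 6.09) and 0.611% of CA1 nuclei (0.440 to 0.849) had a Napepld UMI. The unthinned shares were 40.4% and 7.57% at medians of 8597 and 13442 UMIs.

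Faah (4:115967145-116017926, minus strand) was highest in the principal neurons of the hippocampus. CA3 neurons had 186 CPM ± 36.1 and CA1 neurons 162 CPM ± 26.3, and CA3 was the higher in 15 of 15 mice by a log2 difference of 0.20 (exact permutation test, adjusted p = 0.00239). Without NP mouse 31, at 300 CPM, the CA3 mean was 178 CPM. Mossy cells (161 CPM), dentate granule neurons (152 CPM) and CA2 neurons (143 CPM) followed, and no step from CA1 down to CA2 passed the threshold.

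A step followed below CA2. The subiculum class had 76.3 CPM ± 22.3 of Faah, lower than CA2 in 13 of 13 mice (log2 difference 0.96, exact permutation test, adjusted p = 0.00598). The 4 named interneuron classes lay between 34.8 and 51.6 CPM. Astrocytes, at 13.4 CPM ± 3.15, were below oligodendrocytes, at 35.7 CPM ± 5.02, in 15 of 15 mice. Oligodendrocyte cluster 9 had 55.0 CPM ± 8.64, above clusters 7 (27.7 CPM) and 10 (29.2 CPM) in all of them.

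Some members shared their highest class and others did not. Dagla and Faah were both highest in CA3 neurons, Mgll and Abhd6 were both highest in Lamp5 interneurons, and Cnr1, Daglb and Napepld were each highest in a class of their own. Over the 29 class means on the log2(CPM + 1) scale, Dagla and Faah were the most alike of the 21 pairs (Pearson r = 0.64), and Cnr1 and Napepld the least (r = -0.28). The genes most like each member were, for Cnr1, Kcnq5 (0.73), Tnfaip8l3 (0.71) and Gm39185 (0.70). For Dagla they were Prkce (0.87), Actr3b (0.83) and Nefl (0.82), and for Daglb Gpr183 (0.88), Card9 (0.87) and Hpgds (0.86). Mgll was most like Ostm1 (0.67), Abr (0.64) and Atp7b (0.62), and Abhd6 was most like Snhg4 (0.71), Ipo4 (0.71) and Slc39a14 (0.69). Faah was most like Gm2762 (0.84), Shisa6 (0.81) and Kcnj6 (0.80), and Napepld was most like Arsj (0.69), Pea15a (0.66) and Glo1 (0.66). These correlations describe 29 classes from the same libraries among 13027 genes, and carry no test.

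Of the 24 further genes of the pathway, only Cnr2, Abhd12, Cnrip1 and Pla2g4e had the same highest class as a member. The rest were highest in classes that led for no member, such as endothelial cells for Gnaq and Plcb4 and oligodendrocytes for Gnao1. Cnr2, which encodes the receptor CB2, was found in microglia at 18.7 CPM ± 5.58 (n = 15) and at no more than 1.27 CPM elsewhere. Abhd12, a further 2-AG hydrolase, was also highest in microglia at 634 CPM ± 54.8, followed by OPC at 171 CPM. Cnrip1, whose product binds CB1, was highest in CA3 at 109 CPM ± 10.6, and Pla2g4e, an enzyme of precursor synthesis for anandamide, in Lamp5 interneurons at 107 CPM ± 15.0. Grm5, a glutamate receptor upstream of 2-AG synthesis, was highest in the subiculum class, where no member was, at 5178 CPM ± 701 (n = 13). Trpv1 had a mean of at most 1.26 CPM in any class.

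The groups were then compared, to ask whether reproductive experience or postpartum stress went with other levels of these genes within a class. Counts summed per mouse and class were tested with edgeR across all genes. None of the member and class pairs passed an adjusted p of 0.05 in any comparison. For ControlPP minus NP, 0 of 120 pairs in 22 classes were called, against 0.000491% of all 203723 gene and class pairs. For StressPP minus ControlPP, 0 of 132 pairs in 25 classes were called, against 0.00134% of all pairs. For StressPP minus NP, 0 of 130 pairs in 24 classes were called, against 0% of all pairs. The shares over all genes come from 23, 26 and 26 classes, so they include classes in which no member was tested.

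At an unadjusted p of 0.05 by edgeR, 0 of 120, 1 of 132 and 3 of 130 member pairs were under the threshold, in the same order of comparisons. Over all genes the shares were 3.2%, 2.96% and 3.79%, above those of the members. DESeq2 called 0 member pairs in each comparison, against 0.00147%, 0.029% and 0.000455% of all pairs. It had 0, 1 and 0 under the unadjusted threshold, against 2.29%, 2.02% and 2.89%. The levels of the groups did not overlap in 0 of 120, 1 of 132 and 0 of 130 member pairs, against 0.859%, 2.01% and 0.709% of all pairs. The 3 comparisons share mice, as do the classes of a comparison, so these counts are not independent.

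The precision behind these counts was uneven. The interval of the log2 difference (95% normal interval) lay within -1 and 1 for 109 of 120, 120 of 132 and 116 of 130 pairs, and within -0.5 and 0.5 for 51, 58 and 53. Log2 differences of 1 in either direction were thus outside the interval for most pairs. In the remaining 69, 74 and 77 pairs the interval reached past -0.5 or 0.5, so that a difference of this size was not outside it. This normal interval is narrower than the edgeR test implies. For Dagla in oligodendrocytes, StressPP minus ControlPP, it ran from -0.92 to -0.009 at an unadjusted edgeR p of 0.0629. The counts of pairs within it are therefore upper bounds. Median log2 differences over pairs were -0.04, -0.02 and -0.05.

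**Figure D4:**
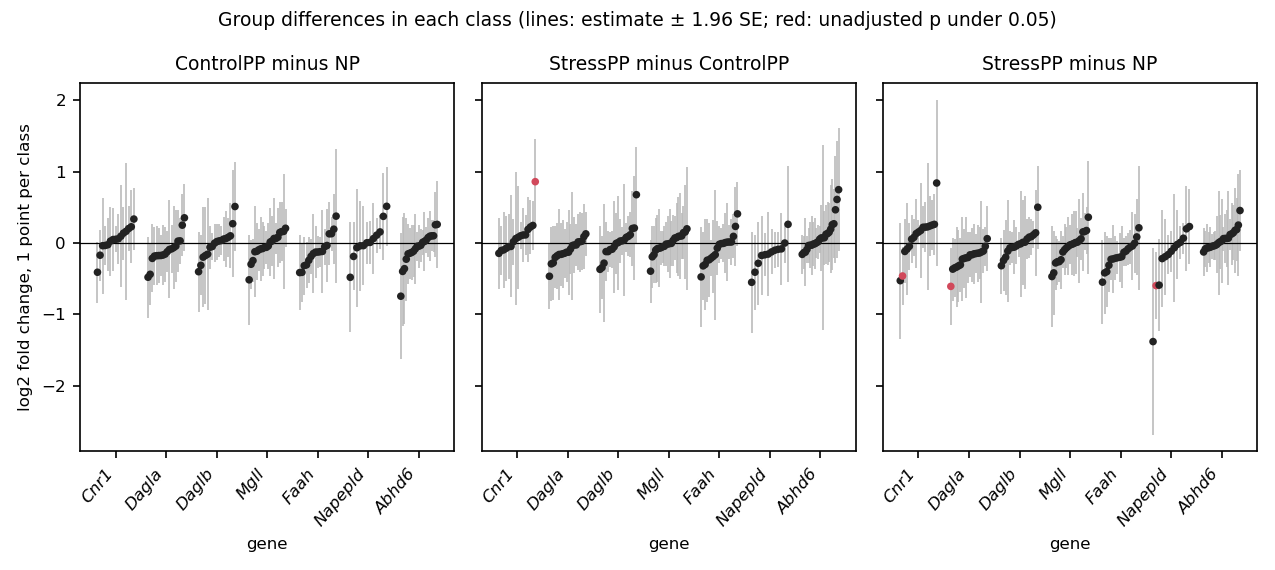
Log2 difference between groups from edgeR for each member and class, in 1 panel per comparison, with a point per class. No point passed the adjusted threshold, and the values ran from -1.38 to 0.86.

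By gene the directions were as follows. Dagla was lower in 19 of 20 classes for StressPP minus NP (median log2 difference -0.18), in 14 of 18 for ControlPP minus NP (-0.14) and in 15 of 20 for StressPP minus ControlPP (-0.13). Faah was lower in 16 of 18, 13 of 17 and 12 of 19 classes. Cnr1 was higher in 12 of 17, 10 of 15 and 10 of 16 classes. Napepld was lower in 9 of 13, 5 of 12 and 11 of 12 classes (median -0.12, 0.01 and -0.14). Abhd6 was higher in 14 of 23, 9 of 21 and 15 of 24 classes. Mgll was lower in 13 of 21, 11 of 20 and 13 of 22 classes, and Daglb in 10 of 18, 8 of 17 and 9 of 19. Over all genes in the same classes, 50.2% to 51.9% of the differences were lower. NP mouse 31 stood apart for Dagla and Faah, and without it Dagla was lower in 18 of 20 classes for StressPP minus NP (median -0.07) and in 10 of 18 for ControlPP minus NP (-0.02). Faah was then lower in 12 of 18 and 11 of 17 classes (-0.11 and -0.04). Over whole punches the log2 difference of Dagla for StressPP minus NP was 0.00, and 0.12 without NP mouse 31, so the sign across classes was not found there. Leaving out any 1 mouse gave Dagla lower in 9 to 18 of 20 classes for StressPP minus ControlPP, Napepld lower in 8 to 11 of 12, and Cnr1 lower in 4 to 10 of 16. None of these differences was called in any class, and classes from the same mice share the deviations of those mice.

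In the class where each member was highest, the groups overlapped in every comparison. Cnr1 in Vip or Cck interneurons was 912, 1196 and 1391 CPM (lowest, median and highest of 6) in NP mice. It was 961, 1142, 1396 and 1724 CPM in ControlPP mice, and 1107, 1172, 1283, 1404 and 1636 CPM in StressPP mice. The log2 differences were 0.20 (standard error 0.16) for ControlPP minus NP, 0.02 (0.16) for StressPP minus ControlPP and 0.22 (0.15) for StressPP minus NP. The adjusted p by edgeR was 0.954, 1.00 and 0.878.

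For Daglb in microglia the values were 133, 152 and 191 CPM (lowest, median, highest) in NP mice. They were 115, 162, 164 and 178 CPM in ControlPP mice, and 146, 157, 168, 177 and 193 CPM in StressPP mice. All 3 groups covered nearly the same range. The log2 differences were -0.00, 0.09 and 0.09, in the order used above, and the adjusted p by edgeR was 1.00, 1.00 and 0.978.

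Mgll in Lamp5 interneurons had 485 CPM ± 150 in NP (n = 6), 390 CPM ± 33.3 in ControlPP (n = 4) and 389 CPM ± 49.7 in StressPP (n = 5) mice. The NP mean was raised by mouse 31, and the NP median was 427 CPM. Dagla in CA3 had 265 CPM ± 69.7, 219 CPM ± 47.1 and 222 CPM ± 68.7, and Faah in CA3 had 209 CPM ± 46.4, 173 CPM ± 16.1 and 171 CPM ± 20.5. Napepld in dentate granule neurons had 60.4 CPM ± 9.06, 63.2 CPM ± 5.92 and 59.8 CPM ± 12.3. Abhd6 in Lamp5 interneurons had 116 CPM ± 26.7, 108 CPM ± 4.50 and 107 CPM ± 18.8. All log2 differences for these 5 lay between -0.26 and 0.11, and none was called.

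The pairs with the lowest unadjusted p are given next as values that were not called. The lowest of all was Cnr1 in striatal projection neurons for StressPP minus ControlPP, with a log2 difference of 0.86 (standard error 0.30, edgeR unadjusted p = 0.0146 and adjusted p = 0.344). Striatal projection neurons are not cells of the hippocampus, and only 8 mice held at least 10 of them. StressPP mice 43, 75 and 77 had 73.9, 178 and 97.3 CPM from 84, 1230 and 275 UMIs. ControlPP mice 66, 72 and 87 had 79.7, 49.7 and 65.1 CPM from 20, 20 and 54 UMIs, and 2 NP mice had 88 and 103 CPM. StressPP and ControlPP overlapped at mouse 43. Without StressPP mouse 75 the difference was 0.42. Within batches it was 0.95 in batch 2, from 1 StressPP mouse and 1 ControlPP mouse, and 0.66 in batch 3, from 2 of each.

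With no filter on low counts this pair passed the adjusted threshold (log2 difference 0.91, edgeR adjusted p = 0.00153). It was 1 of 182 member pairs in that fit, against 0.0878% of all pairs. No other alternative called a member.

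Of the other pairs in StressPP minus ControlPP, Daglb in choroid plexus had a log2 difference of 0.68 (edgeR adjusted p = 1.00). StressPP mice had 26.3, 30.2, 33.6 and 43.5 CPM and ControlPP mice 19.5, 19.7, 20.1 and 23.2 CPM. It was the 1 pair of 132 in which the groups did not overlap, and each value rested on 2 to 20 UMIs. Dagla in oligodendrocytes differed by -0.47 (edgeR adjusted p = 0.998), with StressPP mice at 9.45, 11.4, 12.5, 14.5 and 21.6 CPM and ControlPP mice at 15.8, 17.6, 19.0 and 23.4 CPM. These groups overlapped, and within batches the value was -0.11 and -0.76.

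For ControlPP minus NP the lowest 3 were Dagla in Lamp5 interneurons (-0.44), Faah in the subiculum class (-0.41) and Cnr1 in thalamic neurons (-0.41). Their adjusted p by edgeR was 0.912, 0.995 and 1.00. Without ControlPP mouse 66 the Faah difference was -0.26. Dagla in Lamp5 interneurons was 45.6, 61.9 and 114 CPM (lowest, median, highest) in NP mice, and 48.8, 49.9, 53.1 and 57.0 CPM in ControlPP mice. The ControlPP mice lay inside the NP range. Within batches 2 and 3 the 3 differences were -0.06 and -0.52, -0.03 and -0.64, and -0.25 and -0.45.

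For StressPP minus NP the lowest 3 were Napepld in OPC (-0.60), Dagla in Vip or Cck interneurons (-0.61) and Cnr1 in thalamic neurons (-0.46). Their adjusted p by edgeR was 1.00, 0.852 and 1.00. Napepld in OPC was 9.42, 15.7 and 20.9 CPM (lowest, median, highest) in NP mice, and 8.22, 8.97, 9.02, 12.0 and 13.2 CPM in StressPP mice. The difference was -0.95 and -0.53 in batches 2 and 3, and 0.06 in batch 1. Dagla in Vip or Cck interneurons was 20.4, 30.6 and 53.5 CPM in NP mice and 11.7, 19.7, 21.8, 26.5 and 30.3 CPM in StressPP mice, from 8 to 26 UMIs each, and the groups overlapped. Cnr1 in thalamic neurons was low, with a thinned share within the interval of choroid plexus as described above.

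Over whole punches, where all nuclei of a mouse were summed, fewer cells of a class and less RNA per cell cannot be told apart. None of the 21 member and comparison pairs was called by edgeR, against 0.00157% of 63495 gene and comparison pairs. DESeq2 also called 0, against 0.0331% of them. At the unadjusted threshold 1 pair was under it by each tool, against 2.95% of all pairs by edgeR and 3.25% by DESeq2. The groups did not overlap in 0 of the 21, against 0.545% of all pairs. The intervals of all 21 lay within -1 and 1.

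The pair was Cnr1 for StressPP minus NP, with a log2 difference of 0.43 (standard error 0.16, edgeR unadjusted p = 0.0197 and adjusted p = 0.999). NP mice had 28.8, 36.6 and 38.7 CPM (lowest, median, highest) and StressPP mice 29.8, 37, 47.8, 56.9 and 57.7 CPM. ControlPP mice had 24.4, 34.4, 37.2 and 48.8 CPM. The groups overlapped, with 3 StressPP mice above all NP mice.

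The number of striatal projection nuclei differed between punches. Striatal projection nuclei gave 33.8% of the Cnr1 UMIs in StressPP mouse 75 and 20.8% in NP mouse 35, and 0 to 7.59% in the other mice. Without striatal projection and other GABAergic nuclei, a comparison added after the data were seen, the difference was 0.35 (standard error 0.17, edgeR unadjusted p = 0.0541). In StressPP mice 43, 70, 75, 77 and 90 the level went from 37, 47.8, 57.7, 56.9 and 29.8 CPM to 36.5, 47.8, 38.3, 53.6 and 29.8 CPM. NP mouse 35 went from 37.8 to 30.7 CPM. Within batches 1, 2 and 3 the difference over all nuclei was 0.33, 0.15 and 0.56.

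Among the 24 further genes of the pathway, 23 could be tested in at least 1 class, and Trpv1 in none. By edgeR, 0 of 357, 0 of 399 and 0 of 391 gene and class pairs were called for ControlPP minus NP, StressPP minus ControlPP and StressPP minus NP. Over all genes, as above, these shares were 0.000491%, 0.00134% and 0%. Under the unadjusted threshold were 19 of 357 pairs (6 higher and 13 lower), against 3.2% over all genes. For the other comparisons there were 14 of 399 (7 and 7) against 2.96% and 16 of 391 (6 and 10) against 3.79%. DESeq2 called 0, 1 and 0, against 0.00147%, 0.029% and 0.000455% over all genes. It had 17, 14 and 15 under the unadjusted threshold, against 2.29%, 2.02% and 2.89%.

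The pair called by DESeq2 was Grm5 in Cajal-Retzius cells for StressPP minus ControlPP, at a log2 difference of -0.84 (DESeq2 adjusted p = 0.0274). By edgeR it was -0.82 (standard error 0.21, adjusted p = 0.22), the lowest p of that comparison. The lowest p for ControlPP minus NP was that of Plcb4, which encodes a phospholipase C, in the same cells (-0.81, edgeR adjusted p = 0.503).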

How the data were processed

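Nuclei were profiled with a droplet kit that captures the 3′ ends of transcripts. The authors deposited, for each mouse, a matrix of raw UMI counts per barcode and gene, made with Cell Ranger against mm10 (GRCm38) and limited to the barcodes it called as nuclei. The methods give Cell Ranger 7.1.0 and the headers of the matrices name 7.0.0. These deposited values are raw, with neither doublets nor free RNA taken out and no scaling. The labels give the group and batch of each mouse, and the methods state that each group was present in each batch, whereas no ControlPP mouse of batch 1 was among the samples used here.

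Barcodes were kept with at least 200 genes and at most 5% mitochondrial UMIs, and the highest Scrublet scores of each library were removed at 0.8% per 1000 barcodes, which left 123913 nuclei. Clustering used 2000 variable genes, 30 principal components, 15 neighbours and Leiden resolution 1 (scanpy 1.11.5, igraph 0.11.9, leidenalg 0.10.2). Interneuron nuclei were clustered again on 1000 variable genes and 20 components. The endocannabinoid genes and the pathway list were left out of the variable genes. A cluster of at least 50 nuclei was named when at least 3 markers were detected (at least 5 CPM and 2-fold the median cluster) with a mean log2 fold of at least 2 over the list, or 3 for GABAergic classes. The clusters had been seen when these thresholds were set. Cluster 21 stayed unnamed although 4 of 5 cortical markers were detected, since its top genes did not match that name. Cluster 6 (4785 nuclei) stayed unnamed although 6 of 6 dentate granule markers were detected, since its depth was 0.272 of the median of its libraries and its top genes held none of those markers. Excitatory forebrain names needed at least 50 CPM of Slc17a7. Unnamed clusters held 8638 nuclei.

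Counts were summed per mouse and class, for mice with at least 10 nuclei, and classes with at least 3 such mice in both groups were tested. The edgeR 4.0.16 quasi-likelihood test (filterByExpr, TMM, no batch term) had all 3 groups in each fit, with Benjamini-Hochberg adjustment over all genes of a class. DESeq2 1.42.0 in R 4.3.3 was an alternative, as in the authors' analysis. The scripts were tested on simulated data first. Shares of nuclei were given with 95% Wilson intervals, also after thinning to 1000 UMIs, and nuclei below that depth were left out of the thinned share. Libraries held 38017096 to 86562600 UMIs after the filters. Gene positions came from the GENCODE annotation of GRCm38 and promoter windows from RefSeq, with Python 3.11.15, pandas 2.3.3, numpy 2.4.6, matplotlib 3.10.9 and scipy 1.17.1.

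The members, the pathway list, the marker lists and the tests were chosen with earlier results of these data known. All 7 members were named with their levels. A group difference was to be named where its adjusted p was under 0.05, and otherwise the 3 with the lowest unadjusted p per comparison were named, along with the 3 genes most like each member among genes with at least 20 CPM in some class. From the pathway list, the gene with the lowest p per comparison was named, except for StressPP minus NP, where it is not reported here. Pairs of classes, clusters and sub-clusters set side by side without a test, and the top classes of pathway genes, were picked after their values were seen.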

Additional observations from a re-analysis of the deposited data

Results flagged for a closer look

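A sample that lay far from the others of its group, by the gap to its nearest neighbour over the range of the group, was found in 9 of 62 groups of 4 to 6 mice. Chance gives about 1 in 20 such groups. The same mice recur across these groups, so the groups are not independent, and no test was made on their number.

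In NP mouse 31 this held for Dagla over the whole punch at 203 CPM (next mouse 141 CPM) and for Mgll over the whole punch at 196 CPM (145 CPM). It also held there for Dagla in CA3 at 402 CPM (259 CPM), for Faah in CA3 at 299.5 CPM (212 CPM) and for Mgll in Lamp5 interneurons at 783 CPM (478 CPM). In StressPP mouse 70 it held for Dagla in CA3 at 340 CPM (214 CPM) and for Mgll in Lamp5 interneurons at 476 CPM (378 CPM). Both mice belong to batch 1, and NP mouse 27 of that batch had 259 CPM of Dagla in CA3 and 430 CPM of Mgll in Lamp5 interneurons. The unnamed cluster 6, with a median of 1336 UMIs per nucleus, held 1280 nuclei in NP mouse 31 and 638 in StressPP mouse 70, against 106 to 388 in the other 13 mice, and its part in these values was not tested.

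The others were Dagla in oligodendrocytes of NP mouse 37 at 9.64 CPM (next mouse 15.7 CPM) and Daglb in choroid plexus of ControlPP mouse 66 at 23.2 CPM (20.1 CPM). The latter value rests on 12 UMIs.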

How the results depend on the processing

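Alternatives were DESeq2, other size factors, no filter on low counts, batch as a term, at least 30 nuclei per mouse and class, and leaving out each mouse. The counts compared were those of called pairs and of members whose highest class was unchanged. Of these 118 counts, 115 equalled the reported count and 3 moved. With no filter on low counts, 1 member pair (Cnr1 in striatal projection neurons, log2 difference 0.91) and 3 pathway pairs were called. All were for StressPP minus ControlPP, where this fit called 494 of 562934 gene and class pairs (0.0878%). With DESeq2 1 pathway pair was called in the same comparison, against 0.029% of all pairs. The 3 pathway pairs called without the filter were Grm5 in Cajal-Retzius cells (-0.82), Plcb4 in mossy cells (1.57) and Plcb4 in striatal projection neurons (-1.44). The cause was not tested. Leaving out any 1 mouse gave 0 called members in every comparison and 0 called pathway pairs. Of 218 values of named differences, values within batches 2 and 3 included, 217 kept their direction and, where tested, their side of the threshold. None of the 218 turned. Values within batch 1 were not among them, and there Napepld in OPC for StressPP minus NP was 0.06 against -0.60. The named differences were picked by their low unadjusted p, and most of these values come from refits on nearly the same mice. Agreement in direction was therefore likely in advance and does not show that the differences are stable. The levels had alternatives of their own: the mean of CPM per nucleus, the thinned share, doublets kept and each mouse left out. The class in which each member was highest was the same in all of these. With at least 30 nuclei, Faah in the subiculum class and Cnr1 in striatal projection neurons could not be fitted.

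No paired analysis was possible because each mouse belongs to 1 group, and replicate numbers only name mice in accession order. Depth limits classes with few nuclei. Daglb in choroid plexus rested on 2 to 20 UMIs per mouse. The normal interval of the log2 difference reached past 1 or -1 for at least 11 of 120, 12 of 132 and 14 of 130 member pairs. No correction for free RNA was applied.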
